A study of Mus musculus with 6 samples.

Results

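Mitochondrial tRNA-Phe-GAA and tRNA-Leu-TAA are the tRNAs encoded on either side of the mitochondrial rRNA genes, and their fragments were described here in mouse pulmonary artery smooth muscle cells kept in hypoxia or normoxia. Members were all sequences in the deposited table of tRNA-derived small RNAs (tsRNAs) whose every annotation names 1 of these 2 tRNAs (mt_tRNA-Phe-GAA or mt_tRNA-Leu-TAA in the table). The rule gave 382 of 38798 sequences, 66 from tRNA-Phe-GAA and 316 from tRNA-Leu-TAA, and it used no measured level. They held 4196 of 8966706 counts (0.0468%). Primary wild type cells were held for 24 h at 3% O2 in the hypoxia group (n = 3) or cultured under normoxia (n = 3), and small RNA was sequenced with Pandora-seq, a method that treats RNA with enzymes to remove modifications that otherwise block library preparation. Neither strain, nor age, nor the number of animals that gave the cells is stated in the labels. Nothing in these sources says that the 3 replicates of a group came from separate animals or cultures, so p-values measure the spread between these samples, which may be technical. The smooth muscle identity of the cells could not be checked, since a table of tRNA fragments holds no marker gene.

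Mitochondrial DNA is transcribed into long polycistronic RNAs in which tRNAs lie between the rRNAs and the protein-coding genes, and cutting at the tRNAs' ends by mitochondrial RNase P and RNase Z (ELAC2) frees their neighbours. The nucleotidyltransferase TRNT1 then adds the CCA tail that carries the amino acid, so a fragment with CCA comes from the 3′ end of a tRNA that had been matured, and a fragment that begins at the first encoded base comes from its 5′ end. tRNA-Phe reads phenylalanine codons and tRNA-Leu-TAA (called Leu-UUR) reads the leucine codons that begin with UU and end in a purine. The human gene of tRNA-Leu-TAA, MT-TL1, is known for mutations that cause mitochondrial encephalomyopathy. The long fragments known as tiRNAs arise by cleavage in the anticodon loop, and shorter fragments by cleavage in the D or T arm.

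Gene positions and sequences were taken from GENCODE on GRCm38 (mm10). mt-Tf, the gene of tRNA-Phe-GAA, lies at chrM:1-68 on the plus strand, followed by the 12S rRNA gene mt-Rnr1 at chrM:70-1024, the tRNA-Val gene mt-Tv at chrM:1025-1093, the 16S rRNA gene mt-Rnr2 at chrM:1094-2675, and mt-Tl1, the gene of tRNA-Leu-TAA, at chrM:2676-2750. The complex I subunit gene mt-Nd1 begins at the next base, chrM:2751-3707. Both full tRNA sequences are shown because every member is placed on them, and capitals mark the anticodon, at bases 33 to 35 of tRNA-Phe and 36 to 38 of tRNA-Leu.
tRNA-Phe-GAA: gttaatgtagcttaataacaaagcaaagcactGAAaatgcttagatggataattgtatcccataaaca
tRNA-Leu-TAA: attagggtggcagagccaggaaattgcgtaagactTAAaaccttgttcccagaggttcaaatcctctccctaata

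The fragments on which the results turn are shown next, 5′ to 3′, with capitals for anticodon bases or for the added CCA.
Phe 3′ CCA fragment (bases 57 to 71): atcccataaacaCCA
Phe 5′ fragment to the anticodon (bases 1 to 32): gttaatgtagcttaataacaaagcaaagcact
Leu short 5′ fragment (bases 1 to 20): attagggtggcagagccagg
Leu long 5′ fragment (bases 1 to 26): attagggtggcagagccaggaaattg
Leu anticodon fragment (bases 24 to 43): ttgcgtaagactTAAaacct
Leu 3′ CCA fragment (bases 64 to 78): ctctccctaataCCA
The tRNAs share no run longer than 5 bases, while members were 15 to 45 bases long, so a member cannot stem from the other tRNA. Of the 382 sequences, 381 matched their gene with CCA added exactly and at 1 place, and 1 Phe sequence with 2 counts did not. Whether nuclear copies of mitochondrial DNA hold the same sequences was not checked.

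Total tsRNA counts ran from 510519 to 2563749 in hypoxia libraries and from 330787 to 2217965 in normoxia libraries, and the replicate 1 library was the shallowest in each group. Mitochondrial tRNAs took 15.3% of counts in hypoxia replicate 1 and 14.4% in normoxia replicate 1, against 6.0% to 6.04% in the other hypoxia libraries and 6.63% to 7.33% in the other normoxia libraries. The libraries numbered 1 stood apart in this way in both groups, so values over all 6 libraries carry that difference, and levels, ratios and shares that move without these libraries are given with and without them. CPM below is a member's count divided by the library's tsRNA total and multiplied by 1000000, and 1 count was worth 0.390 to 1.96 CPM in hypoxia libraries and 0.451 to 3.02 CPM in normoxia libraries. A sequence with no count may lie below 3 counts, a limit of 1.17 to 5.88 CPM in hypoxia and 1.35 to 9.07 CPM in normoxia.

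Fragments of tRNA-Phe were the scarcest among mitochondrial tRNAs, and those of tRNA-Leu-TAA lay below the median. Over the 6 libraries tRNA-Phe fragments averaged 90.2 CPM, the lowest of 22 mitochondrial tRNAs, and tRNA-Leu-TAA fragments averaged 635 CPM, in place 16, where the median tRNA had 1105 CPM. Per 100 encoded bases, which allows for gene length, the levels were 133 CPM for tRNA-Phe (place 22) and 846 CPM for tRNA-Leu-TAA (place 17), with a median of 1650 CPM. Without the libraries numbered 1 the mean levels were 46.1 CPM for tRNA-Phe, still the lowest, and 323 CPM for tRNA-Leu-TAA, in place 13, with a median of 576 CPM. The tRNA encoded between the rRNA genes, tRNA-Val, stood at 50579 CPM per 100 bases, so the 3 tRNAs of the rRNA region covered both ends of the range of levels. Detection was sparse for both tRNAs. Of the Phe sequences 43 of 66 were seen in a single library, as were 181 of 316 Leu-TAA sequences. In all 6 libraries 2 Phe and 16 Leu-TAA sequences were seen. The libraries numbered 1 held the most distinct sequences, though they were the shallowest. For Leu-TAA these were 200, 71 and 55 in hypoxia replicates 1 to 3 and 136, 69 and 60 in normoxia replicates 1 to 3. For Phe they were 31, 17 and 9 in hypoxia and 23, 17 and 14 in normoxia.

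tRNA-Phe fragments were lower in hypoxia than in normoxia within every numbered pair, but with all 6 libraries no test on groups alone passed its threshold. They had 139, 23.8 and 20.4 CPM in hypoxia replicates 1 to 3, from 71, 61 and 35 counts. In normoxia replicates 1 to 3 they had 218, 54.1 and 85.9 CPM, from 72, 120 and 140 counts. Within each group replicate 1 was the highest, and the groups overlapped because hypoxia replicate 1 exceeded normoxia replicates 2 and 3. The means were 61.1 ± 67.6 CPM in hypoxia and 119 ± 86.7 CPM in normoxia (SD, n = 3 each; two-sided exact permutation p = 0.5, where 0.1 is the smallest this design allows). The hypoxia to normoxia ratios of CPM were 0.639, 0.440 and 0.238 for replicates 1, 2 and 3. The labels state no pairing, and without the libraries numbered 1 same-numbered libraries did not deviate together (correlation -0.03). Comparisons within pairs and fits with the replicate block therefore rest on an assumed pairing. A level below normoxia in all 3 pairs was also seen in 26% of the 73 tRNA families in the table and in 45.5% of the 22 mitochondrial ones. Since the cultures were measured in bulk, fewer cells of a type and less of this RNA per cell cannot be told apart; the values are shares of each library's tsRNA counts.

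A model over all 73 tRNA families, in which each family's counts were summed, gave a log2 difference for tRNA-Phe of -1.17 (SE 0.56; edgeR's quasi-likelihood test, Benjamini-Hochberg adjusted p = 0.996). With these groups alone the model called 0 of 73 families (0%), with 2 families at an unadjusted p under 0.05, both lower (2.74%) and tRNA-Phe not among them; DESeq2 called 2 and limma voom 0. With the replicate number as a block, the log2 difference was -1.31 (SE 0.24; adjusted p = 0.00659), and the call was then passed by 3 of 73 families (4.11%), all of them lower, and by 2 of the 22 mitochondrial ones (9.09%), tRNA-Phe and tRNA-Gly-TCC. Without the libraries numbered 1 and without the block, the log2 difference was -1.67 (SE 0.25, edgeR, adjusted p = 0.0204). In that setting tRNA-Gly-TCC passed as well (-0.91, edgeR, adjusted p = 0.0434). The share of all families that passed there is not given here, so the call cannot be read as particular to tRNA-Phe. With the block but without pair 2, the log2 difference of tRNA-Phe was -1.31 (SE 0.47, edgeR, adjusted p = 0.458). The scaling set the median of all families at -0.07, or at 0.11 with DESeq2's size factors, and relative to that median tRNA-Phe was at -1.10 under both.

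tRNA-Leu-TAA fragments showed no difference of one direction. They had 1428, 289 and 309.8 CPM in hypoxia replicates 1 to 3, from 729, 740 and 531 counts. In normoxia replicates 1 to 3 they had 1088, 349.9 and 344 CPM, from 360, 776 and 561 counts. The libraries numbered 1 were highest in both groups, and the others lay close together. The means were 675 ± 652 CPM in hypoxia and 594 ± 428 CPM in normoxia (SD, n = 3 each; two-sided exact permutation p = 1). The ratio of hypoxia to normoxia was 1.31 for replicate 1, 0.825 for replicate 2 and 0.900 for replicate 3. In the model over families the log2 difference was 0.05 (SE 0.46; edgeR, adjusted p = 0.996), and with the replicate block -0.04 (SE 0.19; adjusted p = 0.936), so its sign turned with the block.

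Set against each other within a library, tRNA-Phe was the scarcer in all 6 libraries and more so in hypoxia. The log2 ratio of Phe to Leu-TAA counts was -3.35, -3.59 and -3.90 in hypoxia replicates 1 to 3. It was -2.31, -2.69 and -1.999 in normoxia replicates 1 to 3. Every hypoxia library lay below every normoxia library, the libraries numbered 1 included, when all fragments were counted. The means were -3.62 ± 0.28 in hypoxia and -2.33 ± 0.35 in normoxia (SD, n = 3 each), a difference of -1.28 or a fold of 0.411 (two-sided exact permutation p = 0.1, the smallest this design allows). Of the 231 pairs of mitochondrial tRNAs, 29 had ratios that did not overlap between the groups (12.6%). Without the 15-base Phe CCA fragment the difference was -0.97, and the groups overlapped (exact permutation p = 0.2). Over sequences of at least 18 bases the difference was -1.72, and the groups overlapped as well (exact permutation p = 0.2).

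**Figure D1:**
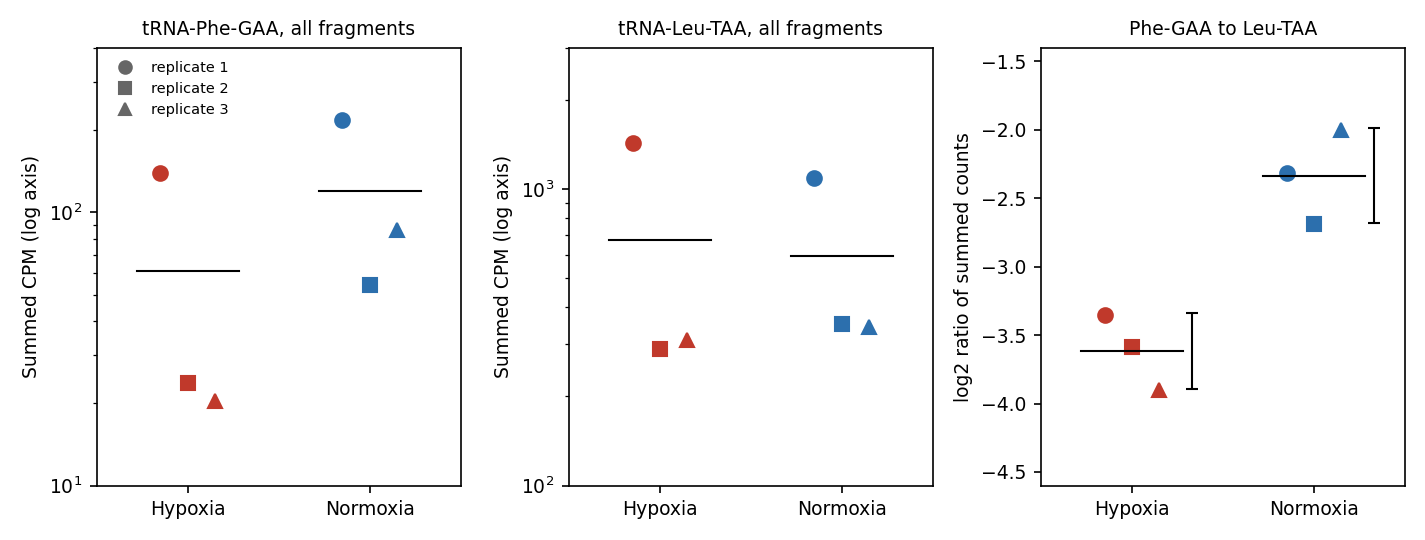
Fragment levels of tRNA-Phe-GAA and tRNA-Leu-TAA in CPM, and their log2 ratio, by library, with hypoxia left of normoxia; points are libraries, horizontal lines are means, and the error bars of the ratio are SD (n = 3); the CPM axes are logarithmic. The libraries numbered 1 lie highest for both tRNAs, and the ratio of Phe to Leu-TAA is lower in all 3 hypoxia libraries than in any normoxia library.

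tRNA-Phe was also set against the summed counts of the 20 mitochondrial tRNAs other than these 2. That log2 ratio was -10.07, -11.28 and -11.50 in hypoxia replicates 1 to 3. In normoxia replicates 1 to 3 it was -9.34, -10.24 and -9.72. The groups overlapped, since hypoxia replicate 1 lay above normoxia replicate 2. The means were -10.95 ± 0.77 and -9.77 ± 0.45 (SD, n = 3 each), a fold of 0.441 (two-sided exact permutation p = 0.2). Without the libraries numbered 1 the difference was -1.41 and the groups did not overlap (exact permutation p = 0.333, the smallest for 2 against 2). How many of the 22 mitochondrial tRNAs did not overlap in that setting was not counted. Each of the 22 mitochondrial tRNAs was also set against the other 21, with all 6 libraries. There the log2 difference of -1.18 for tRNA-Phe was the lowest, followed by -0.85 for tRNA-Ile-GAT. For tRNA-Leu-TAA the log2 ratio to the same 20 tRNAs averaged -7.34 ± 0.53 in hypoxia and -7.44 ± 0.36 in normoxia, a fold of 1.07 (exact permutation p = 0.8). Of the 22 tRNAs 1, tRNA-Asp-GTC, had groups that did not overlap with all 6 libraries (4.55%). tRNA-Val, the neighbour between the rRNA genes, had a log2 difference of 0.37 (SE 0.29) in the model over families and 0.38 with the replicate block (edgeR, adjusted p = 0.149). It held the most counts of the 22 (276565), and its ratio to the other 21 differed by 0.87, so the sums used in these ratios depend much on tRNA-Val. In the model over families 18 of the 22 mitochondrial tRNAs lay below 0, with a median of -0.20. With the block 19 did, with a median of -0.35.

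**Figure D2:**
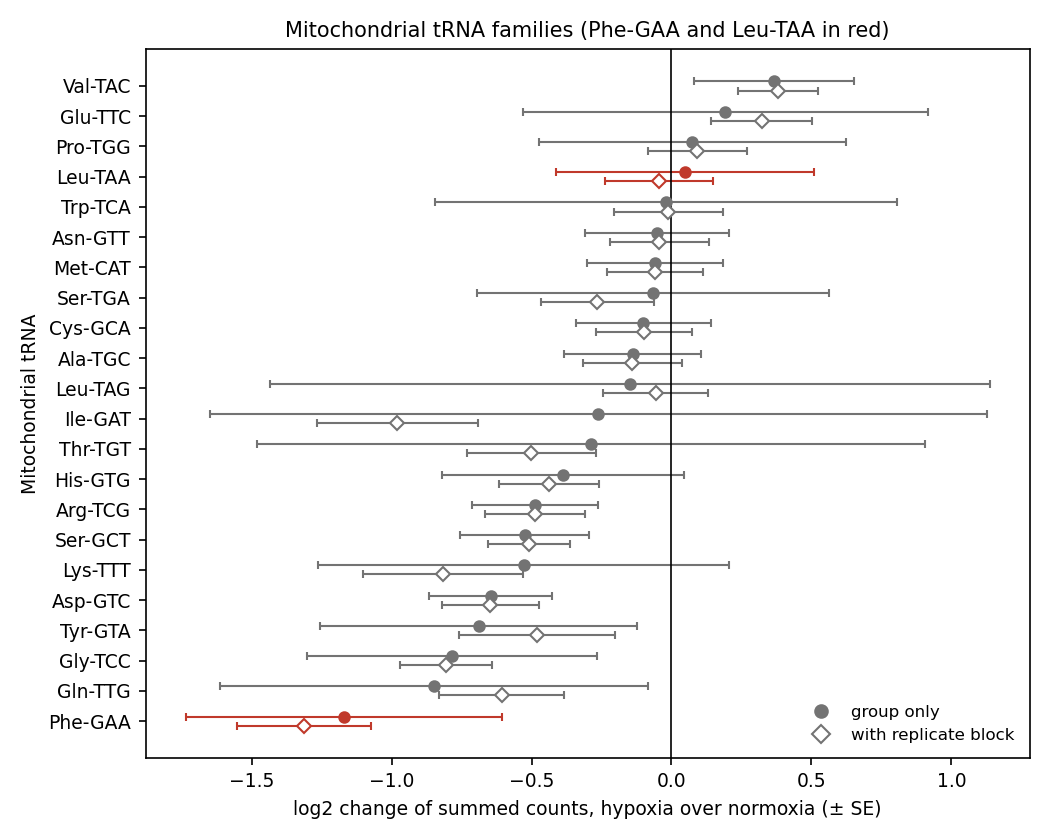
Log2 difference between hypoxia and normoxia of the summed fragments of each mitochondrial tRNA, in the model over all tRNA families; points are estimates and bars are SE, without and with the replicate number as a block. tRNA-Phe-GAA lies at -1.17 without and -1.31 with the block, and tRNA-Leu-TAA at 0.05 and -0.04.

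The tRNAs were cut into different pieces. Of the tRNA-Phe counts 44.3% came from 1 sequence, the 15-base CCA fragment of its 3′ end, whereas the most abundant tRNA-Leu-TAA pieces were 5′ fragments ending at base 20 or 26, which together held 33.9% of its counts. As a mean over libraries, the CCA-end share of tRNA-Phe was 39.6%, the highest of the 22 mitochondrial tRNAs, tRNA-Val followed with 35.2%, and tRNA-Leu-TAA was in place 4 with 4.46%, against a median of 0.606%. The 5′-end share of tRNA-Leu-TAA was 50.4% and that of tRNA-Phe 27.9%, with a median of 16.5%. These means hide a split by library number. In the libraries numbered 1 the Phe 5′ share was 47.9% in hypoxia and 48.6% in normoxia, above the Leu-TAA 5′ share of 25.2% in hypoxia and 28.9% in normoxia, while in the other 4 libraries the Leu-TAA share was the higher. Without the libraries numbered 1 the mean 5′ share was 62.0% for tRNA-Leu-TAA and 17.7% for tRNA-Phe, and the Phe CCA share was 54.4%, again the highest of the 22. CCA fragments of all mitochondrial tRNAs were at most 18 bases long, while those of nuclear tRNAs reached 45 bases. The only CCA sequence of tRNA-Phe had 15 bases and those of tRNA-Leu-TAA had 15 and 16. No sequence in the deposited data is shorter than 15 bases, so shorter CCA pieces could not be seen and the shares leave them out.

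**Figure D3:**
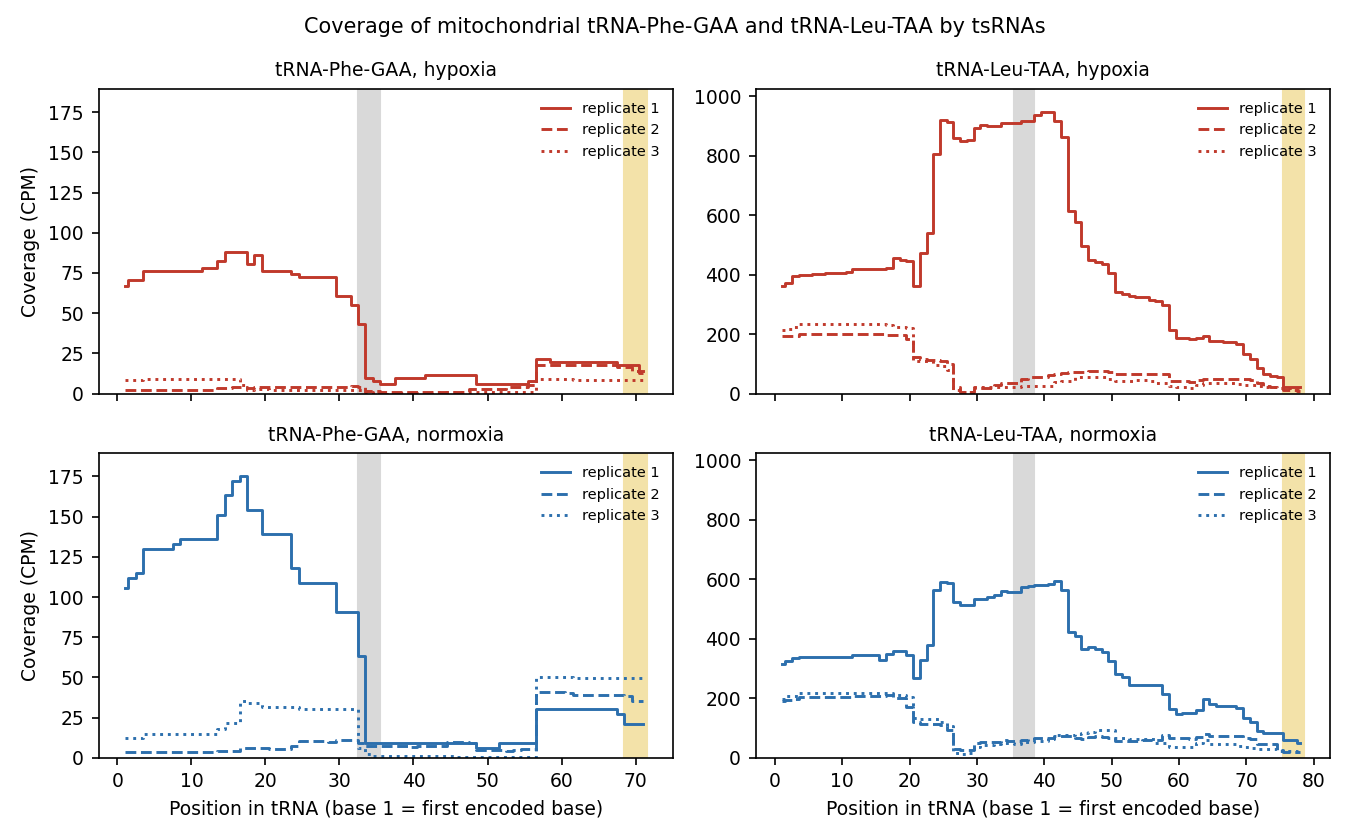
Coverage of each base of tRNA-Phe-GAA and tRNA-Leu-TAA in CPM, for each hypoxia library above and each normoxia library below; grey marks the anticodon and yellow the CCA tail. In the libraries numbered 1 coverage is highest over the 5′ part of tRNA-Phe and across the anticodon of tRNA-Leu-TAA, while in the others tRNA-Phe is covered most over its CCA end or, in hypoxia replicate 3, about equally at both ends.

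The Phe CCA fragment atcccataaacaCCA was the 1 tested member whose groups did not overlap. Hypoxia libraries gave 7, 33 and 14 counts in replicates 1 to 3, or 13.7, 12.9 and 8.17 CPM. In normoxia replicates 1 to 3 it had 7, 79 and 81 counts, or 21.2, 35.6 and 49.7 CPM. All hypoxia libraries lay below all normoxia libraries, and here the libraries numbered 1 were not the highest of the normoxia group. The means were 11.6 ± 2.99 CPM in hypoxia and 35.5 ± 14.3 CPM in normoxia (SD, n = 3 each). In the fit over all 6452 tested tsRNAs its log2 difference was -1.75 (SE 0.72; edgeR, unadjusted p = 0.0410, adjusted p = 0.9996), and with the replicate block -1.67 (SE 0.61; adjusted p = 0.507). Groups that do not overlap were found for 4.84% of the tested tsRNAs.

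5′ fragments of tRNA-Phe came mainly from the libraries numbered 1, which held 59.0% of their counts. They stood at 66.6, 2.34 and 8.17 CPM in hypoxia replicates 1 to 3 and at 106, 3.61 and 12.3 CPM in normoxia replicates 1 to 3, and hypoxia was the lower within each pair. The most abundant form, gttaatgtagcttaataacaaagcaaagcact, ends at the base before the anticodon; it had 5, 0 and 0 counts in the hypoxia libraries and 9, 0 and 14 in normoxia. Its log2 difference was -2.23 with an SE of 2.04 (edgeR), and no difference was detectable at this depth. The form ending at base 17 had 4, 1 and 6 counts in the hypoxia libraries and 7, 4 and 2 in normoxia, and the form that takes in the first anticodon base, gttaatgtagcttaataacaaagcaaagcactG, had 4, 3 and 0 in hypoxia and 5, 0 and 1 in normoxia. The internal fragment aataacaaagcaaagcactG, which ends at the same base, had 2, 2 and 0 counts in the hypoxia libraries and 5, 1 and 4 in normoxia. Fragments ending at the last encoded base, without CCA, were near absent, with 1 count in hypoxia and 3 in normoxia over all libraries. A further 17 Phe counts (3.41%) ended in an incomplete CCA tail, C or CC, and fall in the internal class. They were 2, 9 and 0 in hypoxia replicates 1 to 3 and 0, 6 and 0 in normoxia replicates 1 to 3. In all, 13 Phe sequences ended at base 32 or 33 and held 116 counts (23.2%), which places their 3′ end at the edge of the anticodon. Fragments that contain the whole anticodon made up 0 to 4 counts in each hypoxia library and 1 to 16 in each normoxia library.

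The most abundant 5′ fragments of tRNA-Leu-TAA end before the anticodon, at bases 20 and 26. Of the 1897 counts that begin at base 1, 24 ended at bases 29 to 35 and 63 ran through the whole anticodon. The short form attagggtggcagagccagg had 56, 144 and 162 counts in hypoxia replicates 1 to 3, or 109.7, 56.2 and 94.5 CPM, and 32, 105 and 102 counts in normoxia replicates 1 to 3, or 96.7, 47.3 and 62.6 CPM. It was higher in hypoxia within each pair, yet the means of 86.8 ± 27.6 CPM in hypoxia and 68.9 ± 25.3 CPM in normoxia (SD, n = 3 each) overlapped, and the log2 difference of 0.36 (SE 0.55) did not pass the test. The long form attagggtggcagagccaggaaattg had 35, 197 and 114 counts in hypoxia, or 68.6, 76.8 and 66.5 CPM. In normoxia it had 25, 137 and 144 counts, or 75.6, 61.8 and 88.4 CPM. Its means were 70.6 ± 5.47 CPM in hypoxia and 75.2 ± 13.3 CPM in normoxia, a log2 difference of -0.11 (SE 0.57). In the libraries numbered 1 it was not raised with the rest of tRNA-Leu-TAA.

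Just beyond base 26 the coverage of tRNA-Leu-TAA split the libraries by number rather than by oxygen. At base 28 it was 848 CPM in hypoxia replicate 1, and 6.63 and 5.83 CPM in hypoxia replicates 2 and 3. It was 514 CPM in normoxia replicate 1, and 27.1 and 14.1 CPM in normoxia replicates 2 and 3. Both libraries numbered 1 were thus covered across the stretch that was nearly empty in the other 4. Fragments starting at bases 20 to 25, which begin near the end of the D arm and run into the anticodon arm, comprised 80 sequences with 510 counts, of which 90.2% lay in the libraries numbered 1. They had 335, 10 and 2 counts in hypoxia replicates 1 to 3, and 125, 23 and 15 counts in normoxia replicates 1 to 3. The anticodon fragment ttgcgtaagactTAAaacct followed this pattern, with 56, 0 and 0 counts in the hypoxia libraries and 27, 11 and 0 in normoxia, and so did tgcgtaagactTAAaacct, which starts 1 base later, with 36, 0 and 0 counts in the hypoxia libraries and 3, 0 and 0 in normoxia. In the libraries not numbered 1, these fragments were fewer in both hypoxia libraries than in either normoxia library, a description of 2 libraries a group.

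The Leu-TAA CCA fragment ctctccctaataCCA was lower in hypoxia within each pair, as its Phe counterpart was and as were 13.4% of the tested tsRNAs. It had 6, 13 and 10 counts in hypoxia, or 11.8, 5.07 and 5.83 CPM, and 14, 26 and 20 counts in normoxia, or 42.3, 11.7 and 12.3 CPM. The groups overlapped, by hypoxia replicate 1 against normoxia replicate 2, and the log2 difference was -1.44 (SE 0.73; edgeR, unadjusted p = 0.0860). The form 1 base longer at its 5′ end had 6, 12 and 21 counts in the hypoxia libraries and 3, 18 and 11 in normoxia, with no common direction. The 15-base form is also found in the transcript of 1 other annotated gene, Fam160a2, so a count of it may come from elsewhere.

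**Figure D4:**
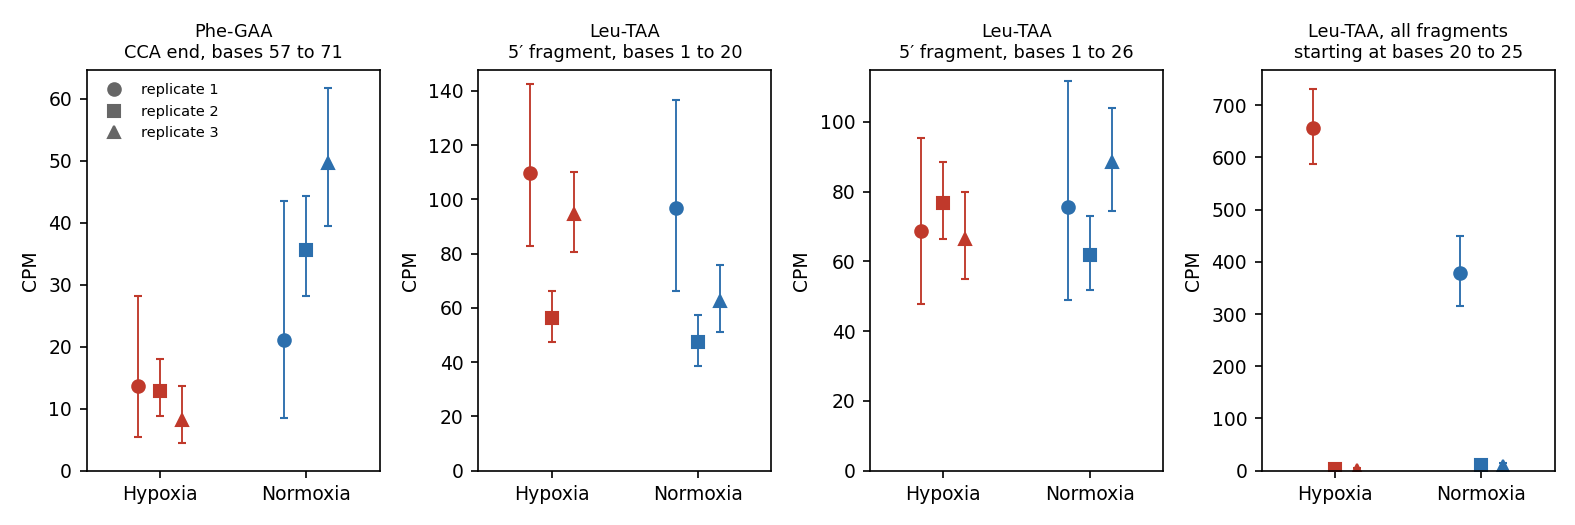
Level in CPM, in each library, of the Phe CCA fragment, the short and the long Leu-TAA 5′ fragment, and the sum of all Leu-TAA fragments starting at bases 20 to 25, with hypoxia left of normoxia; points are libraries and bars are exact 95% Poisson intervals, which cover counting error only. The Phe CCA fragment lies at 8.17 to 13.7 CPM in hypoxia and 21.2 to 49.7 CPM in normoxia, the Leu-TAA 5′ fragments overlap between the groups, and the fragments starting at bases 20 to 25 are high in the libraries numbered 1.

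Only 13 members passed the count filter, 2 from tRNA-Phe and 11 from tRNA-Leu-TAA, and they held 49.9% of the Phe and 52.1% of the Leu-TAA counts. None of the 13 was called by edgeR with groups alone, and 1, the Phe CCA fragment, had an unadjusted p under 0.05; over all 6452 tested tsRNAs the same fit called 0 (0%), with 27 lower (0.418%) and 18 higher (0.279%) at an unadjusted p under 0.05. With the replicate block 0 of the 13 were called, against 10 of all tested tsRNAs (0.155%), 5 of them lower (0.0775%). At an unadjusted p under 0.05 the block left 1 of the 13, the same Phe CCA fragment, against 2.98% lower and 3.41% higher of all tested tsRNAs. Both Phe members had values below 0, and of the Leu-TAA members 4 had values above and 7 below 0; the median was -0.40 for the 13 and 0.02 for all tested tsRNAs. Among other 5′ forms of tRNA-Leu-TAA, the one ending at base 27 had a log2 difference of 1.10 (SE 0.89) and the one ending at base 23 of 0.76 (SE 0.94). The one ending at base 19 had -1.16 (SE 0.88), lower in 3 of 3 pairs, and the one ending at base 17 had -0.996 (SE 1.03), so forms that differ by a few bases lay on either side of 0, and none passed the test.

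With all libraries counted, the shares of fragment classes within each tRNA overlapped between oxygen levels. The libraries numbered 1 lay far from the others in the CCA share of tRNA-Phe and in the 5′ and internal shares of tRNA-Leu-TAA. Without them, the 5′ and internal shares of tRNA-Leu-TAA differed more between oxygen levels than between replicates. The CCA end made up 9.86%, 54.1% and 40% of Phe counts in hypoxia replicates 1 to 3, and 9.72%, 65.8% and 57.9% in normoxia replicates 1 to 3. The exact 95% binomial intervals were 4.06% to 19.3% for hypoxia replicate 1 and 3.999% to 19.0% for normoxia replicate 1, which differ from the other libraries of their groups by more than counting error. The mean share was 9.82 percentage points lower in hypoxia (exact permutation p = 0.6); without the libraries numbered 1 it was 14.8 points lower, and the groups did not overlap (exact permutation p = 0.333). The 5′ end of Phe took 47.9%, 9.84% and 40% in hypoxia and 48.6%, 6.67% and 14.3% in normoxia, a difference of 9.39 points (exact permutation p = 0.8), or 14.4 points without the libraries numbered 1, where the groups overlapped. Internal fragments of Phe held 20% to 42.3% in hypoxia and 26.7% to 38.9% in normoxia (exact permutation p = 1).

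For tRNA-Leu-TAA the 5′ end took 25.2%, 66.9% and 68.6% of counts in hypoxia replicates 1 to 3, and 28.9%, 54.8% and 57.9% in normoxia replicates 1 to 3. The intervals were 22.1% to 28.6% for hypoxia replicate 1 and 63.4% to 70.3% for hypoxia replicate 2. The difference of the means was 6.36 percentage points (exact permutation p = 0.6), and 11.4 points without the libraries numbered 1, where both hypoxia libraries lay above both normoxia libraries (exact permutation p = 0.333, the smallest for 2 against 2). Internal fragments held 70.8%, 27.2% and 24.9% in hypoxia and 64.2%, 38.4% and 35.1% in normoxia, a difference of -4.96 points (exact permutation p = 0.6), and of -10.7 points without the libraries numbered 1, where the groups did not overlap (exact permutation p = 0.333). CCA ends held 1.65%, 3.38% and 5.84% in hypoxia and 4.72%, 5.67% and 5.53% in normoxia, a difference of -1.69 points (exact permutation p = 0.4) and of -0.99 without the libraries numbered 1. Over the 22 mitochondrial tRNAs and all 6 libraries, the shares did not overlap between the groups for 4.55% of tRNAs in the 5′ class. The CCA class gave 18.2% and the internal class 13.6%, and none of these were Phe or Leu-TAA. How many of the 22 did not overlap without the libraries numbered 1 was not counted. The lack of overlap given for Phe and Leu-TAA shares in that setting therefore only describes 2 libraries a group. Median fragment lengths, weighted by counts, were 15 to 19 bases for Phe and 20 to 25 for Leu-TAA in hypoxia libraries, and 15 to 20 and 20 to 22 in normoxia libraries.

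**Figure D5:**
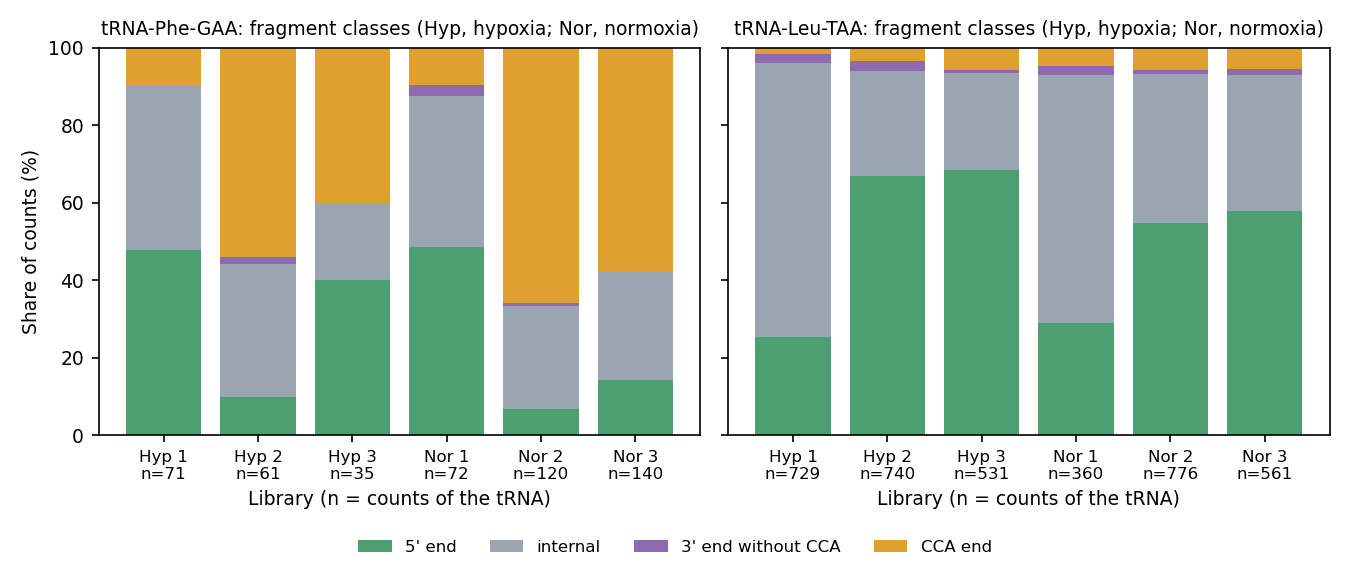
Share of the counts of tRNA-Phe-GAA and tRNA-Leu-TAA in each fragment class, in percent, by library, with hypoxia left of normoxia. The libraries numbered 1 hold fewer CCA fragments of Phe (9.86% and 9.72%) and more internal fragments of Leu-TAA (70.8% and 64.2%) than the other libraries.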

How the data were processed

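Raw read counts per tsRNA sequence were deposited by the authors in 1 table; the build mm10 is given in the submitters' processing notes, while the aligner, tRNA reference and filters behind them are not stated in the labels. Members and lists were chosen with earlier results of these data known. Sequences were placed on the GENCODE release 21 mouse tRNA genes plus CCA; classes are those of the deposited table, 5′ (begins at base 1), CCA, 3′ (ends at the last encoded base) and internal. Named were, for each tRNA, the 5 sequences with the highest mean CPM, the most abundant one of each class, and the 3 higher and 3 lower tested ones with the smallest unadjusted p. Counts were tested with edgeR 4.0.16 (TMM, filterByExpr, quasi-likelihood, group only; R 4.3.3) over all sequences and over 73 tRNA families, with Benjamini-Hochberg adjustment, and calls at 0.05; DESeq2 1.42.0 and limma 3.58.1 were alternatives. Logged ratios had 0.5 added to each sum, and two-sided exact permutation tests were used for ratios and shares (SciPy 1.17.1). The scripts were tested on simulated data. The labels state no pairing of libraries. The replicate number was therefore planned as a block in an alternative fit only, and the main fit used the group alone. Same-numbered libraries deviated together over all 6 libraries (correlations 0.80, 0.55 and 0.47). Without the libraries numbered 1 the correlation was -0.03. The correlations thus rested on those libraries, and nothing here shows that the other same-numbered libraries belong together. Exact Poisson and Clopper-Pearson intervals and the limit of 3 counts cover counting error only, since reads without molecular identifiers are not independent molecules.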

Additional observations from a re-analysis of the deposited data

How the results depend on the processing

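Of 275 values under alternative settings, 120 for sums, ratios, shares and calls and 117 for single fragments kept their direction and call; settings on replicates 2 and 3 alone, combined with the block, or without the 15-base Phe CCA fragment were chosen after seeing the data. The log2 difference of the tRNA-Phe sum passed the threshold with the replicate block (-1.31), with the block and limma voom (-1.32), without pair 1 (-1.63), without pair 3 (-0.93) and without the 15-base fragment (-0.99), and with replicates 2 and 3 alone (-1.67). It did not pass with the block and DESeq2's size factors (-1.14, SE 0.30, adjusted p = 0.0840), nor with the block and DESeq2 as the tool, which gave -1.15 (SE 0.62) and no adjusted p, nor with the block without pair 2 (-1.31), nor without that fragment and without the block (-0.88, SE 0.93). With 1 library left out and no block it ran from -1.93 to -0.84. In every setting where the tRNA-Phe sum passed, tRNA-Gly-TCC passed as well. The share of all families that passed is given only for the replicate block over all libraries (4.11%). The calls in the other settings therefore cannot be read as particular to tRNA-Phe. The tRNA-Leu-TAA sum turned to -0.016 with limma voom, -0.044 with the replicate block, -0.058 with the block and limma voom, -0.24 with the block without pair 1 and -0.24 with replicates 2 and 3 alone, and ran from -0.50 to 0.35 with 1 library left out. tsRNA calls were 10 with the block and 0 to 0 with 1 library left out, and family calls were 1 by library size alone, 2 with DESeq2, 3 with the block and 0 to 1 with 1 library left out. With 1 library left out, the log2 ratio of Phe to Leu-TAA ran from -1.46 to -1.11, that of Phe to other mitochondrial tRNAs from -1.62 to -0.91, and that of Leu-TAA from -0.21 to 0.30; the last was -0.0043 with replicates 2 and 3 alone. Differences of shares, in percentage points, then ran from 1.13 to 22.1 (Phe 5′), -27.2 to 2.58 (Phe CCA), -3.92 to 7.20 (Phe internal), -2.79 to 20.5 (Leu-TAA 5′), -2.79 to -0.70 (Leu-TAA CCA) and -19.9 to 4.18 (Leu-TAA internal). The Phe 5′ difference was -17.5 points over sequences of at least 18 bases, where no CCA fragment is left and the CCA shares have no value, and the Phe internal difference was -0.049 points with replicates 2 and 3 alone. The Leu-TAA fragment attagggtggcagagccaggaaattg ran from -0.31 to 0.27 with 1 library left out (0.099 without hypoxia replicate 1). The cause of these changes was not tested. The replicate block changed no other call among the members; for ratios and shares its exact permutation p cannot go below 0.25. Depth limits single fragments, with 35 to 140 Phe counts in a library.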
